A study of Mus musculus with 6 samples.

Results

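The SOX genes encode transcription factors that bind DNA through an HMG box, the domain first described in the sex-determining factor SRY. This account covers 10 of the 20 SOX genes measured on the array, namely Sox2, Sox4, Sox5, Sox6, Sox8, Sox9, Sox10, Sox11, Sox12 and Sox13, out of 19939 genes tested. They were taken by name. Each was measured by 1 probe set that the platform annotation pairs with a single symbol, so no choice between probe sets was needed. The cells were Melan-Ink4a, an immortal melanocyte line from skin of C57BL/6J mice, null for Ink4a-Arf in both groups. The NRG1 group (3 arrays) had received the growth factor neuregulin 1 as NRG1-beta1 at 10 nM for 21 days, and the untreated group (3 arrays) had not. In both groups the medium held 10% serum with cholera toxin at 200 pM and TPA, a phorbol ester, at 200 nM, and the cells were lysed at 90% confluence. One line was used, and nothing in the labels ties the 3 arrays of either group to separate cultures. The p-values therefore measure the spread between these arrays, which may be technical.

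SOX factors are sorted into groups by the similarity of their HMG boxes, and members of a group often stand in for one another. In the neural crest, from which melanocytes and Schwann cells arise, the SoxE factors SOX8, SOX9 and SOX10 act in survival and fate, and SOX10 activates Mitf, the gene of the master regulator of pigment cells. SoxD factors (SOX5, SOX6 and SOX13) have no activation domain of their own and act as helpers or brakes of SoxE factors, with SOX5 shown in mouse melanoblasts to dampen activation by SOX10. SoxC factors (SOX4, SOX11 and SOX12) are activators of progenitor cells, and the SoxB1 factor SOX2 maintains stem cells and early Schwann cells.

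Sox4 was higher with NRG1 by nearly 1 unit on the log2 scale, Sox6 was higher by a small margin that sat at the threshold, and the other 8 members did not pass the test. The comparison asked what prolonged NRG1 does to melanocyte gene expression, with changes given as NRG1 minus untreated on the deposited log2 scale. Genes with an adjusted p from limma under 0.05 were called, and rose or fell is written of called genes alone. By this rule 2 of 10 members rose and 0 fell. Among all genes tested 20.9% were called, 12.3% as rises and 8.56% as falls, so the members' share lies near the background. The same 2 of 10 members passed at an unadjusted limma p under 0.05, as did 6378 of the 19939 genes tested. The median change of the members was -0.082, against -0.029 over all genes tested. The groups did not overlap for 4 of the 10 members, against 36.7% of all genes.

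**Figure D1:**
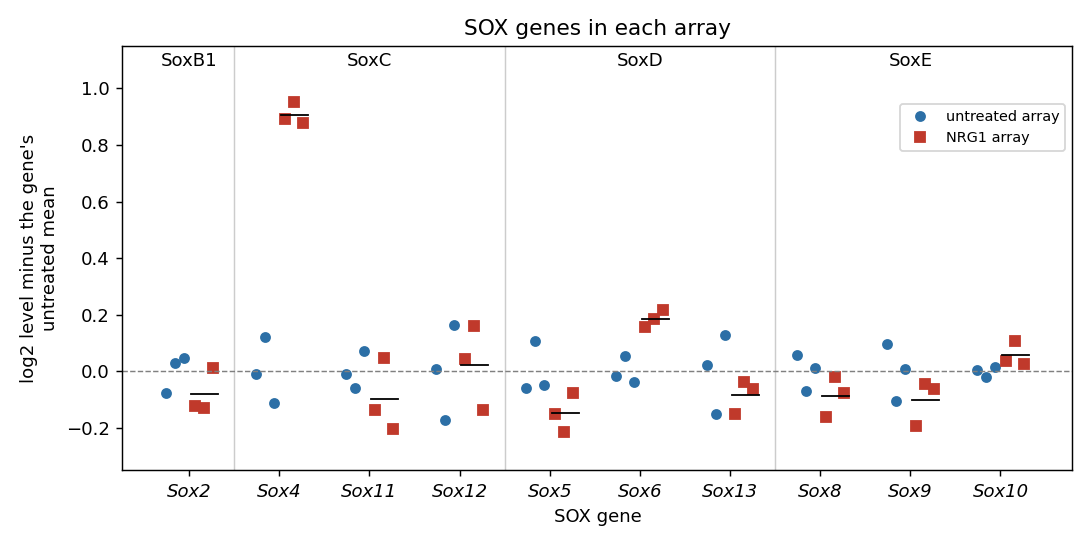
Log2 level of each of the 10 SOX genes in each array, minus the gene's mean in the untreated arrays (circles, untreated; squares, NRG1; bar, NRG1 mean). Sox4 stands 0.91 above its untreated mean, Sox6 stands 0.19 above, and the NRG1 means of the other genes lie between -0.15 and 0.056.

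Over the tested genes, 2 arrays of 1 group correlated at 0.996 to 0.997 and 2 arrays from either side of the comparison at 0.981 to 0.986. All 10 defining melanocyte markers were measured, at mean log2 levels from 8.68 to 13.9, and all 10 fell with NRG1. The summed level of these markers ran from 15.56 to 15.61 on the log2 scale with NRG1 and from 16.09 to 16.11 untreated. Keratinocyte markers, which a melanocyte culture should lack, lay at 5.11 to 6.89 with 0 of 8 called, and endothelial markers at 4.26 to 6.16 with 0 of 5 called. Other lists held calls. Of 8 fibroblast markers 1 rose (Col1a1, a collagen I gene, by 0.86 ± 0.058; limma, adjusted p = 2.95e-06), with a summed log2 level of 10.25 to 10.35 with NRG1 and 10.01 to 10.15 untreated. Of 4 immune markers 1 rose (Cd68, a macrophage gene, by 0.23 ± 0.065; limma, adjusted p = 0.0319), with 8.84 to 8.89 against 8.69 to 8.83. Of 6 chondrocyte markers 1 rose (Col2a1) and 1 fell (Matn1), with 9.78 to 9.85 against 9.15 to 9.36. Col2a1 had the highest mean of the 6 and so weighs most in this sum. Both genes are also in the cartilage list given further on. Fewer cells of a type and less RNA per cell cannot be told apart in such bulk samples. Probe sets differ in how brightly they bind, so levels are not set against each other between genes. Of the members, 5 (Sox2, Sox8, Sox9, Sox11 and Sox12) had means below 7.11, the smallest median that any array had over the tested genes, where array signals are compressed and a difference can be understated.

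Sox4 was the SoxC gene that rose. SOX4 supports the survival of neural and mesenchymal progenitors and is active in many tumours. Its log2 levels with NRG1 were 10.25, 10.31 and 10.23, and untreated they were 9.34, 9.48 and 9.24. The lowest NRG1 value lay well above the highest untreated value. The change was 0.91 ± 0.071 (SE, n = 3 each), a 1.87-fold difference with a 95% interval from 1.68 to 2.09 (limma, adjusted p = 9.21e-06). An absolute change of at least this size was seen in 2.37% of the tested genes.

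The paralogue Sox11, which drives neuronal differentiation together with Sox4 in the embryo, was dim in both groups. Its levels were 5.81, 5.99 and 5.74 with NRG1 and 5.93, 5.88 and 6.01 untreated, and the groups overlapped. The difference was -0.098 ± 0.077 (limma, adjusted p = 0.435), with a 95% interval from -0.27 to 0.073. Sox12, a weaker activator of the same group in the mouse, stood at 6.92, 7.03 and 6.74 with NRG1 and at 6.88, 6.70 and 7.04 untreated. These values were interleaved, with a difference of 0.023 ± 0.099 (limma, adjusted p = 0.905). The 95% intervals of Sox11 and Sox12 ended at 0.073 and 0.24, under the lower bound of 0.75 for Sox4. A rise in Sox11 or Sox12 of the size seen in Sox4 therefore lay outside their intervals, although both were among the 5 members with dim signals.

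The 250 bases before the RefSeq start of the SoxC genes are shown because this group held the clearest change and a relative that did not pass. They are RefSeq sequences of build GRCm38.p6, on the gene's strand from 5′ to 3′. Capitals mark the CCAAT box, a common promoter motif read by the factor NF-Y, in either orientation (CCAAT or ATTGG). The start used in these cells was not measured. Of the 10 members, 8 had a sequence, with Sox9 and Sox10 named here only.
Sox4, chr13:28953700-28953949, minus strand: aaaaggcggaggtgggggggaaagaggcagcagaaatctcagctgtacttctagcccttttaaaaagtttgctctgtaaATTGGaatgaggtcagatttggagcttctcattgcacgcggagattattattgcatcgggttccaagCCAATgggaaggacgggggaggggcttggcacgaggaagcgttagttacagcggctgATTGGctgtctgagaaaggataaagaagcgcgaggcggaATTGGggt
Sox11, chr12:27342719-27342968, minus strand: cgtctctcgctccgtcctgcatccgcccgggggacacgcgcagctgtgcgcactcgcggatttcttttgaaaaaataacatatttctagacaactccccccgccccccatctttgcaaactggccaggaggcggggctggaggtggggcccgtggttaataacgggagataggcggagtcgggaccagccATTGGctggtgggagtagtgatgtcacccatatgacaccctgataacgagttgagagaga
Sox12, chr2:152398047-152398296, minus strand: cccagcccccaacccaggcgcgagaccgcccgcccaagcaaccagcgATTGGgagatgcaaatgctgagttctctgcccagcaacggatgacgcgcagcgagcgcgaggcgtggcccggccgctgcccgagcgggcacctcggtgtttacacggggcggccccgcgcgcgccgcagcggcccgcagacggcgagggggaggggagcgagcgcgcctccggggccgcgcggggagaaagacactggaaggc
The Sox4 window held 4 such boxes, and the Sox11 and Sox12 windows 1 each. Over 32851 windows of the same length, 33.8% held at least 1 box and 0.84% held 4 or more. The Sox4 window held no CCGGAAG (ETS factors, in 6.91% of all windows), no TGANTCA (AP-1, in 6.75%) and neither ACAAAG nor ACAATG (the SOX core, in 25.2%), each searched on both strands. The motifs were chosen after the expression values were seen, and a match is a description and not a binding site.

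Among the SoxD genes, Sox6 was called at the edge of the threshold. SOX6 works in a pair with SOX5 in cartilage and restrains differentiation in several lineages. Its levels were 10.25, 10.28 and 10.31 with NRG1 and 10.08, 10.15 and 10.06 untreated. The groups did not overlap, with a gap of 0.10 between them. The change was 0.19 ± 0.059 (SE, n = 3 each), 1.14-fold with a 95% interval from 1.04 to 1.25 (limma, adjusted p = 0.0499). This call was lost in 9 of 16 alternative settings. Among these were the 5 fits without NRG1 replicate 1, 2 or 3 or without untreated replicate 1 or 3 (adjusted p from 0.0949 to 0.153). It also ended with all probe sets tested (adjusted p = 0.0828), with the replicate number as a block (adjusted p = 0.101), after quantile normalization (adjusted p = 0.101) and against a minimum change of 1.2-fold. Over the 16 settings its adjusted p ran from 0.00803 to 1 and its change from 0.14 to 0.21. An absolute change of this size or more was found in 27.3% of the tested genes.

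Sox5 leaned the other way without passing. Its levels were 9.07, 9.00 and 9.14 with NRG1 and 9.16, 9.32 and 9.17 untreated, so the 3 NRG1 arrays were the lower ones, by 0.017 at the closest pair. The difference was -0.15 ± 0.07, with a 95% interval from -0.30 to 0.0075 (limma, adjusted p = 0.178). None of 16 settings called it (adjusted p from 0.0587 to 1). Sox13, known from gamma-delta T cells, was at 7.49, 7.60 and 7.57 with NRG1 and at 7.66, 7.49 and 7.77 untreated, and these ranges overlapped. Its difference was -0.084 ± 0.078 (limma, adjusted p = 0.524). Sox6os, which the platform lists as a transcript opposite Sox6 and which was looked up after the Sox6 value was seen, was at 7.50 ± 0.165 with NRG1 and 7.55 ± 0.121 untreated (SD, n = 3 each; limma, adjusted p = 0.809).

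No SoxE gene passed the test. Sox10, which melanocytes need throughout life, had levels of 10.97, 11.04 and 10.96 with NRG1 and of 10.94, 10.91 and 10.95 untreated. The 3 NRG1 arrays were the higher ones, but by 0.0095 at the closest pair. Its change was 0.056 ± 0.058 (limma, adjusted p = 0.565), and its 95% interval, from -0.073 to 0.19, spans 0.951-fold to 1.14-fold. Its adjusted p stayed between 0.41 and 1 over 16 settings. Sox9, the master regulator of cartilage that is also made in melanocytes, stood at 6.75, 6.90 and 6.88 with NRG1 and at 7.04, 6.84 and 6.95 untreated. The groups overlapped, and the difference was -0.10 ± 0.073, with a 95% interval from -0.26 to 0.062 (limma, adjusted p = 0.394). Sox8, which partly stands in for Sox10 in the neural crest, had 6.95, 7.09 and 7.04 with NRG1 and 7.17, 7.04 and 7.13 untreated. These values overlapped as well, at -0.087 ± 0.065 with an interval from -0.23 to 0.059 (limma, adjusted p = 0.414). Sox8 and Sox9 were both under the array medians, and Sox10 was not.

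Sox2, the SoxB1 member, gave a dim signal, at 5.70, 5.69 and 5.83 with NRG1 and 5.75, 5.85 and 5.87 untreated. The arrays of both groups were mixed, with a difference of -0.081 ± 0.067 (limma, adjusted p = 0.462). Taken over the 8 members that did not pass, the changes ran from -0.15 to 0.056. Negative changes were seen in 6 of the 8, and in 11633 of the 19939 genes tested. The 95% intervals of the 8 together reached from -0.30 to 0.24. In fold terms these bounds are 0.811 and 1.18, so a measured difference of the size of that in Sox4 lay outside all 8 intervals. Sox2, Sox8, Sox9, Sox11 and Sox12 were dim, and there a difference can be understated. For these 5 members the intervals cannot exclude such a change in the RNA itself. Sox13, at a mean of 7.59, lay not far above the limit of 7.11 used here for dim signals, and calls for similar caution.

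The 10 other SOX genes on the array include the testis-determining gene Sry and the endothelial gene Sox18. They gave 0 calls, against 20.9% of all genes called. Among them 5 (Sox7, Sox14, Sox15, Sox17 and Sox30) had means below 7.11, where a difference can be understated. The changes of all 10 ran from -0.19 to 0.031, and 9 of 10 were negative, as were 11633 of the 19939 genes tested. Their median was -0.072, against -0.029 over all genes. At an unadjusted limma p under 0.05, 1 of the 10 passed, against 6378 of all 19939 genes. The groups did not overlap for 2 of the 10, against 36.7% of all genes. These were Sox14, a SoxB2 gene, at -0.19 ± 0.065 (limma, adjusted p = 0.0652), and Sox1, a SoxB1 gene, at -0.14 ± 0.077 (limma, adjusted p = 0.262). Sox14 passed in 3 of 15 settings.

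**Figure D2:**
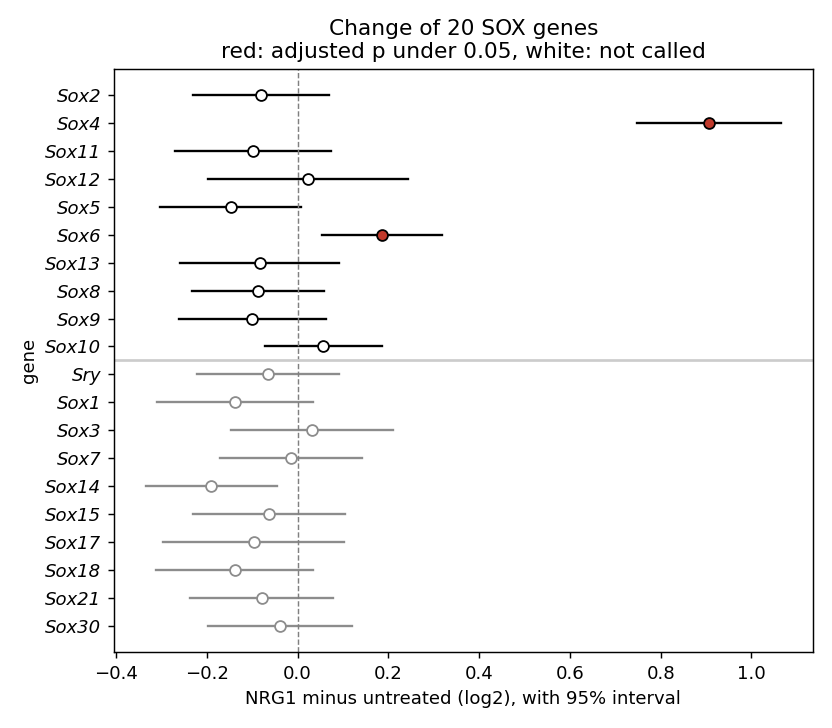
Change with NRG1 of the 10 members (top, black) and the 10 other SOX genes (below, grey), as NRG1 minus untreated on the log2 scale with 95% intervals from limma (n = 3 arrays each). Red points were called, white points were not, and the Sox4 interval of 0.75 to 1.06 lies apart from the other 19.

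Of 7 genes listed as activated by SOX4 and SOX11, 5 rose, 0 fell and 2 did not pass, with a median change of 0.71. Among all genes tested 12.3% rose and 8.56% fell, with a median of -0.029. This list, like the others, was chosen with earlier results of these data known. Stmn1, which encodes the microtubule regulator stathmin, was at 10.54, 10.28 and 10.16 with NRG1 and 8.68, 9.13 and 8.76 untreated, a rise of 1.47 ± 0.125 (limma, adjusted p = 1.61e-05). Mex3a, for an RNA-binding protein of progenitor cells, rose by 1.39 ± 0.122. The NRG1 arrays were the higher ones in every called gene of the list. Tubb3, the neuronal tubulin gene, rose 2.30-fold, and Tead2, a DNA-binding partner of YAP, by 0.71 ± 0.083 on the log2 scale. Ezh2, the histone methyltransferase gene, rose by 0.71 ± 0.072. Dicer1, which makes mature microRNAs, was at 0.031 ± 0.063 and the neuronal gene Dcx at -0.094 ± 0.071, neither of them called. Markers of dividing cells moved with this list and with Sox4. Of these, 6 of 6 measured rose, with a summed log2 level of 12.1 to 12.4 with NRG1 and 10.8 to 11.1 untreated. Neuron markers, which include Tubb3 and Dcx, had 1 of 7 called as a rise and summed levels of 9.92 to 10.1 against 9.50 to 9.56. The part of either in the list's change was not tested.

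The SOX core, ACAAAG or ACAATG on either strand, was chosen after the expression values were seen, and a match is not a binding site. It was found in 4 of the 7 windows of 250 bases available for 6 genes of that list, against 25.2% of all windows. Stmn1 had no window. Windows of 3 genes that rose are shown for their matches, from RefSeq build GRCm38.p6 on the gene's strand, with the matched letters in capitals (CATTGT and CTTTGT are the same motifs on the other strand).
Tubb3, chr8:123411303-123411552, plus strand: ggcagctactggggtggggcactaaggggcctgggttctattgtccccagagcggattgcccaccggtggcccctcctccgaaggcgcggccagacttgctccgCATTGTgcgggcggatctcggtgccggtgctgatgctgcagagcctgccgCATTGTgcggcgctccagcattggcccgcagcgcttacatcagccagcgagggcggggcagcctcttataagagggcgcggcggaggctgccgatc
Tead2, chr7:45215542-45215791, plus strand: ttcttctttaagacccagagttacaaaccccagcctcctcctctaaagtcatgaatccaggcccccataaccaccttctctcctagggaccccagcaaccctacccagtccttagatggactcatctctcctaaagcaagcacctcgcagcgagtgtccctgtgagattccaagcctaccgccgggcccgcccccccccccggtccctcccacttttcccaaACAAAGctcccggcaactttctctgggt
Ezh2, chr6:47595031-47595280, minus strand: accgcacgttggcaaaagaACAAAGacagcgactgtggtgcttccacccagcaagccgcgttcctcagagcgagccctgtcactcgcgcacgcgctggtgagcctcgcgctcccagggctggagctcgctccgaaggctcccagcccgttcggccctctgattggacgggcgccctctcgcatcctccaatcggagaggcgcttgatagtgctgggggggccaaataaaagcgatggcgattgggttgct
Tubb3 held 2 matches, which 4.12% of all windows equal or exceed, and Tead2 and Ezh2 held 1 each. Mex3a, which rose, held none, and neither did Dicer1, which was not called. For Dcx, also not called, 1 of the 2 overlapping windows held 1. Over the members, 7 of 13 windows held the core, among them 5 of the 6 Sox6 windows. The rest were the only windows of Sox2 and Sox5, genes that were not called. Of the 10 windows available for 9 genes of the cartilage list described further on, 0 held the core. Col2a1, Col9a3 and Comp of that list had no window, so Col2a1, its largest rise, was not searched.

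Of 12 pigment and neural crest genes listed for SOX10 and measured, 7 fell and 1 rose, against 8.56% and 12.3% of all genes. The other 4 did not pass, the median of the list was -0.25, and Sox10 itself was not called. Several of the 12 genes are also activated by MITF, and 6 of the 12 are also in the melanocyte marker list given above. Ednrb, the endothelin receptor gene, went from 9.08, 9.20 and 9.09 untreated to 8.02, 7.91 and 7.93 with NRG1, and so fell by 1.17 (SE 0.063; limma, adjusted p = 6.73e-07). Mitf fell by 0.53 on the log2 scale, from untreated levels of 11.67, 11.70 and 11.63 to 11.12, 11.14 and 11.16. In both genes the groups were well apart. Mcam, for a melanoma cell adhesion molecule, went against the list with a rise of 1.10 ± 0.061 (limma, adjusted p = 7.04e-07). Erbb3, the NRG1 receptor gene and a known SOX10 target, was at 0.15 ± 0.057 and not called (limma, adjusted p = 0.105). When genes under the median level were left out, all 9 genes of the list still tested were called, with Erbb3 as a rise.

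Of 12 glial genes listed for SOX10 and measured, 5 rose and 1 fell, against 12.3% and 8.56% of all genes. The other 6 did not pass, and the median of the list was 0.14. The intermediate filament gene Nes rose by 1.63 ± 0.067, the neurotrophin receptor gene Ngfr by 0.65 ± 0.06 and the glial enzyme gene Cnp by 0.63 ± 0.066. Cdh19, a cadherin gene of Schwann cell precursors, was at 10.60, 10.58 and 10.67 with NRG1 and 10.30, 10.21 and 10.20 untreated, a rise of 0.38 ± 0.061 (limma, adjusted p = 0.00125). The connexin gene Gjc3 rose by 0.36 ± 0.064 (limma, adjusted p = 0.00237). The fall was that of S100b, by 0.27 on the log2 scale (limma, adjusted p = 0.0185), and this call ended against the minimum change, with all probe sets tested (adjusted p = 0.052) and when NRG1 replicate 3 was left out (adjusted p = 0.0791). The myelin genes Mbp and Mag were not called, at 0.011 ± 0.077 and 0.28 ± 0.125. Of 5 Schwann cell markers measured, 2 rose and 0 fell, with a summed log2 level of 9.06 to 9.12 with NRG1 and 8.79 to 8.96 untreated. Their part in the rises was not tested.

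Cartilage genes that SOX9 activates with SOX5 and SOX6 split. Of 12 measured, 2 rose, 1 fell and 9 did not pass, a called share of 25% against 20.9% of all genes, with a median of 0.0075. Col2a1, the collagen II gene and the textbook target of the 3 factors, was at 9.07, 9.16 and 9.10 with NRG1 and 8.04, 7.78 and 8.11 untreated. That is a rise of 1.13 ± 0.087, or 2.19-fold (limma, adjusted p = 7.93e-06), with the groups well separated. Col9a1, for a collagen IX chain, rose by 0.64 ± 0.083 (limma, adjusted p = 0.000288). The partner chains Col9a2 and Col9a3 gave -0.078 ± 0.063 and 0.061 ± 0.071, and the cartilage proteoglycan gene Acan -0.011 ± 0.097, none of them called. Matn1, a cartilage matrix gene that was dim here, fell by 0.28 on the log2 scale (limma, adjusted p = 0.021). It was lost in 6 of 14 settings, namely with all probe sets tested, against the minimum change, and without NRG1 replicate 1, NRG1 replicate 2, untreated replicate 1 or untreated replicate 3 (adjusted p from 0.0594 to 0.0653). Of the 3 factors listed for these genes, Sox6 was called and Sox9 and Sox5 were not.

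Partners and regulators of SOX factors moved both ways, with 6 of 23 called as rises and 5 as falls and a median of -0.0030. The shares over all genes were 12.3% rises and 8.56% falls. Lef1, for the beta-catenin partner that shares the HMG box with the SOX factors, had levels of 9.03, 9.10 and 8.78 with NRG1 and 7.88, 7.99 and 7.92 untreated. Its rise was 1.04 ± 0.085 (limma, adjusted p = 1.19e-05). The E-protein gene Tcf4 rose by 0.48 ± 0.065, and the histone deacetylase genes Hdac2 and Hdac1 by 0.44 ± 0.068 and 0.42 ± 0.061. Chd7, a chromatin remodeller gene of the neural crest, rose by 0.37 ± 0.075, or by 0.64 with the mean of its probe sets. Among the falls, the neural crest factor gene Tfap2b fell 2.29-fold, and Pax3, whose product joins SOX10 at Mitf, fell by 0.53 on the log2 scale. Tfap2a and the ubiquitin ligase gene Huwe1 each fell by 0.25, and both calls were lost in 3 of 16 settings, namely without NRG1 replicate 1 or untreated replicate 1 (adjusted p from 0.0504 to 0.0618) and against the minimum change. Snai2 fell by 0.34, and its call (limma, adjusted p = 0.0494) ended under 8 of 16 settings, among them the fits without any 1 array other than untreated replicate 3. One array decides the size of the Snai2 change, which was -0.20 without untreated replicate 2. The crest factor gene Foxd3 was at -0.0030 ± 0.063 with an interval from -0.14 to 0.14, and was not called.

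**Figure D3:**
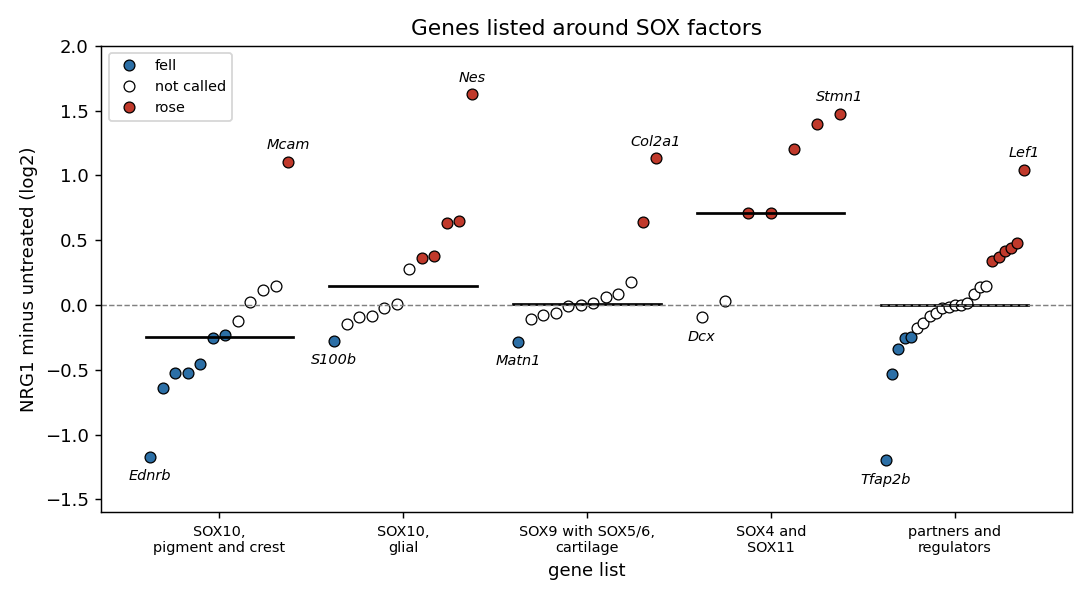
Change with NRG1 (NRG1 minus untreated, log2) of each measured gene in 5 lists around SOX factors, sorted within each list (red, rose; blue, fell; white, not called; bar, median). The list for SOX4 and SOX11 has a median of 0.71 and the pigment list for SOX10 one of -0.25, and the lowest and highest gene of each list are named.

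Across the fits, Sox4 was the member with a call in all 16 alternative settings, with adjusted p from 7.80e-09 to 0.00053 and a change from 0.85 to 0.97. Sox6 was called in 7 of the 16. Not one of the 8 other members was called in any setting that tested it. Sox2 and Sox11 were tested in 14 settings, because both filters on dim genes removed them.

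**Figure D4:**
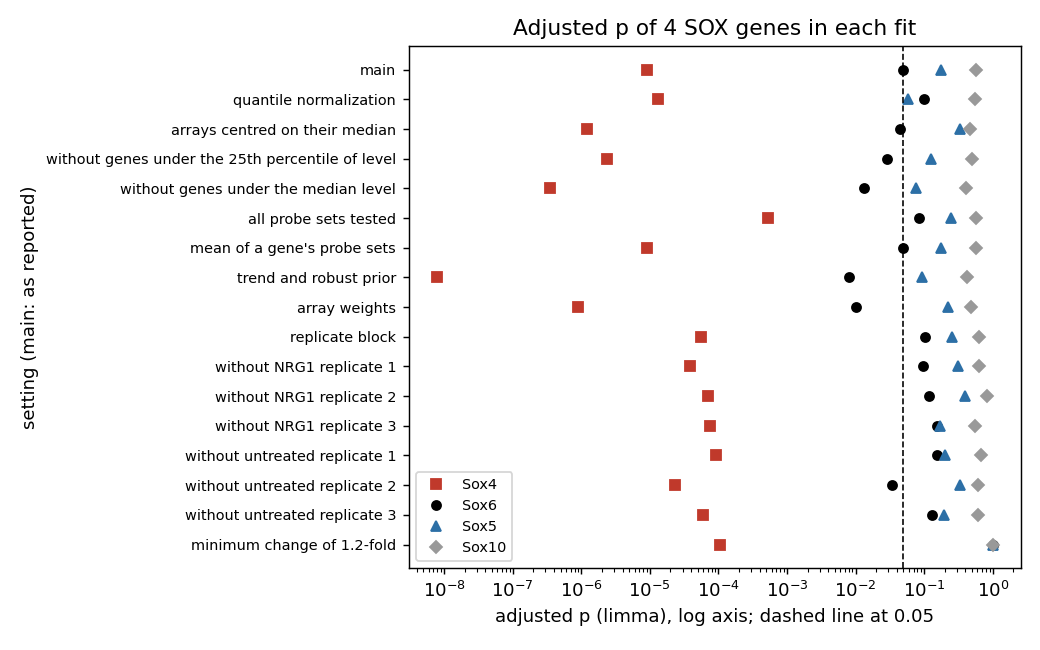
Adjusted p from limma (log axis) of Sox4, Sox6, Sox5 and Sox10 as reported (top) and in 16 alternative settings, with the threshold of 0.05 dashed. Sox4 lies left of the line in each fit, Sox6 lies on both sides of it, and Sox5 and Sox10 lie to its right.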

How the data were processed

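Total RNA (200 ng a sample) of 3 NRG1 and 3 untreated samples went onto Affymetrix mouse GeneChip 1.0 ST arrays, per the labels. The authors deposited log2 values, for which the submitters' processing notes name RMA and GCOS. For both, settings and versions were not given in the sources used here. Values from 2.34 to 14.6 showed the log2 scale. Arrays have no read depth, and 3 arrays per group limit the precision. Groups came from the sample titles, and 0 value columns lacked a sample.

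Probe sets with exactly 1 gene in the platform annotation (21789 of 35557) were kept, symbols were updated to RefSeq (GRCm38.p6), and the probe set with the highest mean was taken per gene. All 19939 genes were fitted in R 4.3.3 with lmFit and eBayes of limma 3.58.1, 2-sided, with Benjamini-Hochberg adjustment, after the fit was tested on simulated data. Intervals of 95% use limma's moderated standard error. An exact permutation test of 3 arrays against 3 cannot go below p = 0.1. Summed marker levels are log2 of the summed linear values. The members and gene lists were chosen with earlier results of these data known. Named genes were the 10 members, other SOX genes called or with groups that did not overlap, and up to 5 called genes per list and direction, to which uncalled genes of interest were added after their values were seen. The 16 alternative settings cover normalization, filters, probe sets, variance models, the replicate block, each array left out and a minimum change of 1.2-fold.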

Additional observations from a re-analysis of the deposited data

How the results depend on the processing

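The count of 2 members called became 1 (Sox4) after quantile normalization, with all probe sets tested, with the replicate block and against a minimum change of 1.2-fold, and was 1 to 2 without single arrays. The count over all genes was 1225 against that minimum change, and 3116 to 4397 without single arrays. Among the other SOX genes 1 fell (Sox14) when genes under the 25th percentile of level were left out, 2 (Sox14 and Sox18) with array weights, and 0 to 1 without single arrays. The minimum change left 5 called pigment genes, 3 glial genes and 3 partners, by its own construction. The sign of Sox12, never called, turned with array weights (-0.0044), and its change ran from -0.063 to 0.10 without single arrays. For the members, 141 of 153 gene and setting pairs kept direction and call, 9 lost the Sox6 call and 3 turned Sox12. For the 32 other genes named by the rule, 476 of 509 did, 30 lost and 3 gained a call, and the causes were not tested. Nothing in the labels says that shared replicate numbers pair the arrays. Deviations from the group means correlated at -0.095, -0.16 and 0.074 for equal numbers and at -0.20 to 0.25 for unequal ones. With 3 arrays per group such values cannot settle the pairing. As a block the replicate numbers gave 3608 called genes and ended the Sox6 call (limma, adjusted p = 0.101). Another background correction needs probe-level signals and was not run.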
